A study of Rattus norvegicus with 9 samples.

Results

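The contractile smooth muscle genes examined here are Myh11, Acta2, Actg2, Tagln, Cnn1, Smtn, Des, Myl9, Mylk and Tpm1. Every probeset to which the platform annotation gives 1 of these symbols alone was taken from the array. All 10 genes were on the array, with 15 probesets among 15923, and 13 of the 15 were among the 9038 non-control probesets bright enough to be tested. A probeset was tested when its third-highest signal over the 9 arrays was at least 45. Tpm1 had 6 probesets, of which 4 were tested, and each of the other 9 genes had 1.

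RNA came from a first side branch of the rat saphenous artery, a small artery of the hind leg, and was hybridised to 9 Affymetrix RAE230A arrays. All rats were males of 16 weeks. The WKY group was untreated Wistar-Kyoto rats, a normotensive strain (n = 3 arrays). The ACTH group was WKY rats given adrenocorticotropic hormone under the skin at 0.1 mg/kg/day for 4 weeks (n = 3), a dose taken from the sample labels, from which the methods of the study differ. The SHR group was untreated spontaneously hypertensive rats (n = 3), an inbred strain, so strain and hypertension cannot be told apart. Each array held RNA pooled from 2 to 3 rats, and no vehicle-treated group is among the arrays used here.

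Smooth muscle shortens when actin filaments slide along myosin filaments. Calcium bound to calmodulin activates myosin light chain kinase, which phosphorylates the regulatory light chain and switches the myosin motor on, while a phosphatase reverses this. Actin-associated proteins such as calponin and tropomyosin lie along the thin filament, and desmin filaments tie the contractile apparatus to dense bodies and to the cell membrane. Serum response factor, acting with myocardin through the CArG box, drives many of these genes in mature vessels, and their loss marks the switch of smooth muscle cells to a synthetic state.

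The genes with the lowest signals in SHR relative to WKY were Des and Acta2, and their upstream sequences are shown because the results turn on Des and because Acta2 is the member whose pattern over the arrays was nearest to it. Both are the 250 bases before the start of the gene in the RefSeq annotation of the rat build GRCr8. Des lies on the plus strand of chromosome 9, and its window is chr9:84299376-84299625. Acta2 lies on the minus strand of chromosome 1, and its window is chr1:241172504-241172753. In the Des window the capitals mark an E box (CANNTG) at 79 to 74 bases upstream. In the Acta2 window the capitals mark a pair of CArG-like elements, at 134 to 125 and at 84 to 75 bases upstream.
Des: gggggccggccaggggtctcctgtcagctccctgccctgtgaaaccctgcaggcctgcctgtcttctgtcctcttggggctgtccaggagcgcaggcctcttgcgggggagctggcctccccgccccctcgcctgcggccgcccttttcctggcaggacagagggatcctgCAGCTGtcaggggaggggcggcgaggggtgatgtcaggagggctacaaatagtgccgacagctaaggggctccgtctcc
Acta2: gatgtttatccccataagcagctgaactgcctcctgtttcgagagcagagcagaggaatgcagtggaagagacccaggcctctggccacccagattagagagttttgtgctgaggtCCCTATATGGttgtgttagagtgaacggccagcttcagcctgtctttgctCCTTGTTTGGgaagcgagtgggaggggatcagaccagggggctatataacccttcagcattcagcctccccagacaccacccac

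Windows were given for 7 of the 10 genes, the others being Myh11, Tagln and Myl9. A CArG box, taken as CC, 6 bases of A or T, then GG, was in none of the 7 windows and in 501 of the 33469 windows of the RefSeq table. With at most 1 C or G among the 6 middle bases it was in 1 of the 7, that of Acta2, and in 8.08% of all windows. An E box was in 6 of the 7, all but Mylk, and in 65.5% of all windows. The GGAATG motif of TEAD factors, read on either strand, was in 3 of the 7, those of Acta2, Tpm1 and Mylk, and in 12.1% of all. The CArG box and the E box read the same on both strands as patterns, and none of the printed matches in capitals overlaps another motif. The GC content of the Des window was 68.8% and that of Acta2 54%, against a median of 51.2% over all windows. These are matches of letters within short windows.

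Some facts of the arrays bear on all results. Median signals were 52.3 to 58.1, and log2 signals of arrays within a group correlated at r = 0.951 to 0.979. The GAPDH 3'/5' ratio, a sign of RNA quality, was 4.91 to 5.99 over the WKY arrays, 3.67 to 4.52 over the ACTH arrays and 3.57 to 5.16 over the SHR arrays. The beta-actin 3'/5' ratio was 9.77 to 13.6, 8.37 to 9.68 and 8.35 to 9.14, and the GAPDH ratio of 3' to middle was 1.66 to 1.89, 1.64 to 1.72 and 1.32 to 1.55, in the same order, so WKY and SHR did not overlap in these. What part RNA quality had in the results was not tested beyond the fit with the GAPDH 3'/5' ratio. Arrays were scanned on 4 days. Day 1 held WKY 2, SHR 1 and SHR 2, day 2 held SHR 3 and the 3 ACTH arrays, and the other days held WKY 3 or WKY 1 alone, so no day held both ACTH and WKY arrays.

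Among the 10 contractile genes, Des alone passed the test between any groups, and it fell in SHR. Des encodes desmin, the intermediate filament of muscle. The 12 other tested probesets differed between SHR and WKY by log2 changes of -0.47 to 0.47, and none passed. Between ACTH and WKY none of the 13 passed, with the 12 others at -0.13 to 0.39. The count was thus 1 of 13 for SHR against WKY, where 2.04% of all 9038 tested probesets were called at an adjusted p under 0.05 (limma, Benjamini-Hochberg). It was 0 of 13 for ACTH against WKY, where 1.25% were called. In that comparison 0 of the 13 and 1132 of all 9038 had an unadjusted p under 0.05 (limma). The count called was 1 of 13 for SHR against ACTH, where 3.41% were called. The F test over the 3 groups called 1 of 13, again Des, and 4.12% of all.

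**Figure D1:**
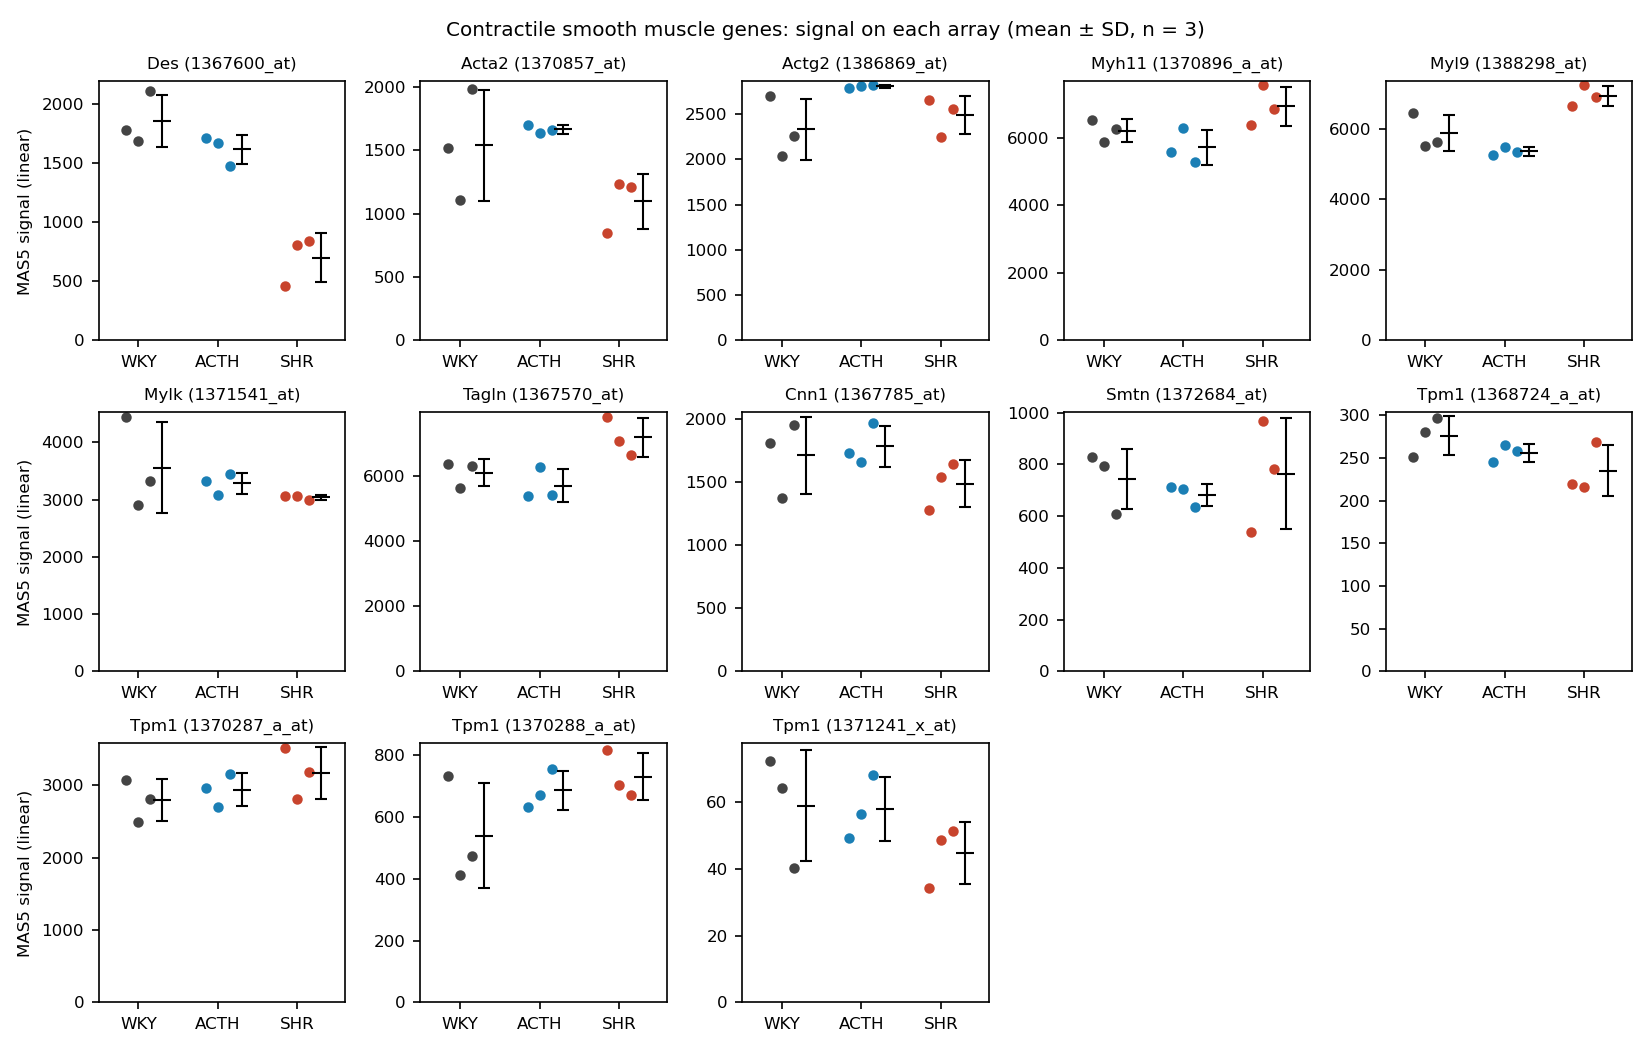
Signal of each of the 13 tested probesets on every array. The vertical axis of each panel is the linear MAS5 signal from 0, points are arrays coloured by group, and the bars are mean ± SD (n = 3). The 3 SHR arrays of Des lie between 459 and 838, below the 6 other arrays at 1477 to 2110, while the other panels show small shifts or overlapping groups.

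The Des signal (probeset 1367600_at) was 1786, 1687 and 2110 on the WKY arrays, 1710, 1668 and 1477 on the ACTH arrays and 459, 807 and 838 on the SHR arrays. All 3 SHR arrays were below all 6 others, and SHR 1 was the lowest. The means were 1861 ± 221 in WKY, 1618 ± 124 in ACTH and 701 ± 210 in SHR (SD, n = 3 each). Des fell in SHR against WKY by a log2 change of -1.45 ± 0.22 (SE; 95% interval -1.94 to -0.96; limma, adjusted p = 0.00682), a 2.74-fold lower level. In these samples of whole artery, fewer cells of a type and less RNA per cell cannot be told apart. Against ACTH the SHR level was lower by -1.25 ± 0.22 (-1.74 to -0.76; limma, adjusted p = 0.013), and the F test gave an adjusted p of 0.00815. Between ACTH and WKY the difference was -0.20 ± 0.22, with an interval of -0.69 to 0.29 (limma, adjusted p = 0.791). The SHR against ACTH value is also the test of whether the change of Des from WKY differed between the models, since both changes are taken from the same WKY arrays.

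Desmin was low in SHR also relative to the other contractile genes on the same array. The log2 ratio of Des to the median of the 9 other genes, each by its brightest probeset, was lower in SHR than in WKY by a difference of -1.54, with SDs of 0.53 in SHR and 0.19 in WKY. For ACTH against WKY that difference was -0.29. The ratio of Des to each of the 9 genes in turn was lower on every SHR array than on any WKY or ACTH array, with SHR against WKY differences of -0.99 for Acta2 to -1.69 for Myl9. No test was made of these ratios, which show unequal change within arrays.

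Some settings ended the call on Des. Within scan day 1, SHR 1 and SHR 2 differed from WKY 2 by -1.47, and within day 2, SHR 3 differed from the ACTH arrays by -0.95. With scan day as a block, which left 3 residual degrees of freedom, the fits gave -1.47 ± 0.33 (limma, adjusted p = 0.193) against WKY and -0.95 ± 0.31 (limma, adjusted p = 0.33) against ACTH, so both calls were lost. With the GAPDH ratio added to the fit the SHR against WKY value was -1.20 ± 0.30 (limma, adjusted p = 0.163) and that against ACTH was -1.27 (limma, adjusted p = 0.0163). Without SHR 1 the values were -1.17 ± 0.15 (limma, adjusted p = 0.00777) against WKY and -0.97 ± 0.15 (limma, adjusted p = 0.0126) against ACTH. Without ACTH 1 the call against ACTH was lost (-1.21 ± 0.26; limma, adjusted p = 0.0615). Des had a single probeset, and whether its target sequence differs between SHR and WKY rats was not tested.

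**Figure D2:**
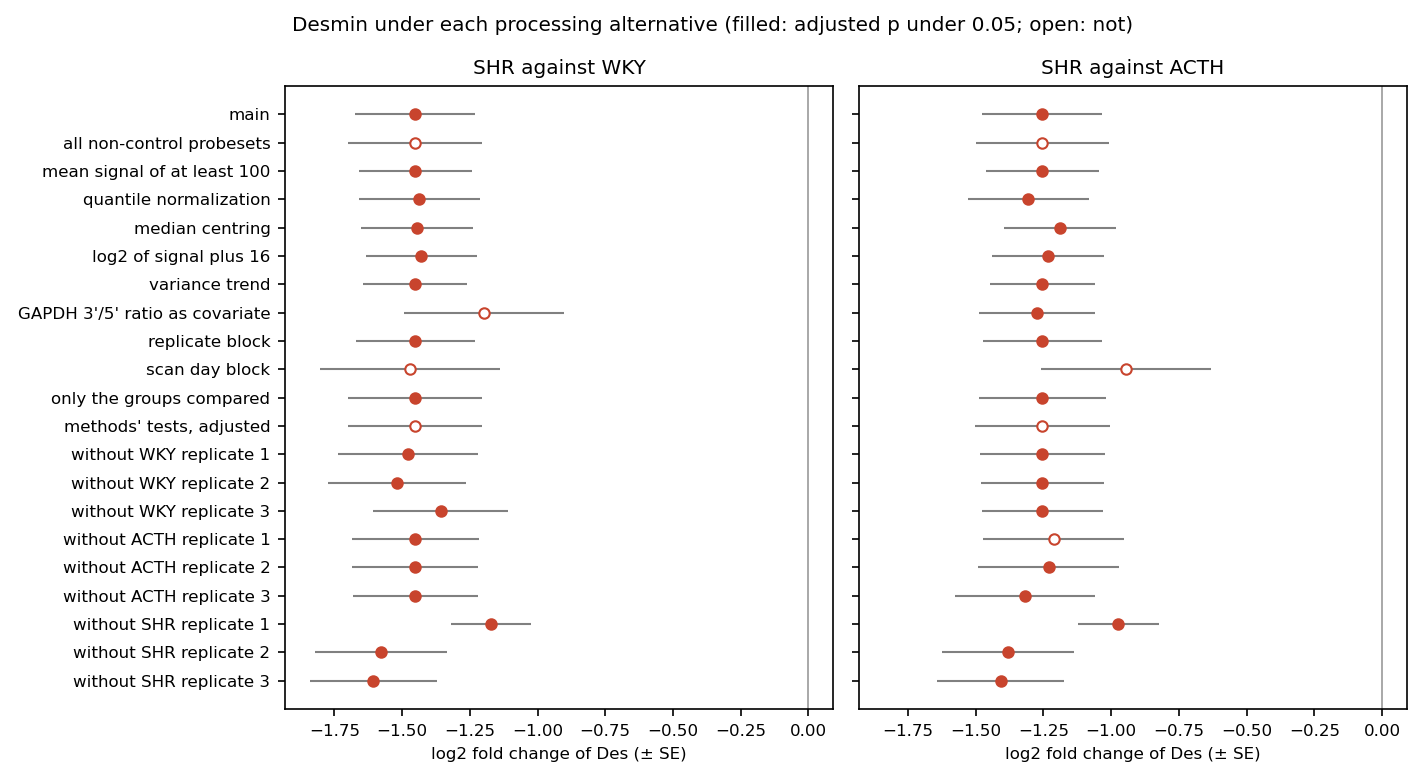
Log2 fold change of Des (horizontal axis, ± SE) for SHR against WKY and SHR against ACTH under each way of processing the arrays (vertical axis). Filled points have an adjusted p under 0.05 and open points do not. Every value was below 0, from -1.61 to -1.17 against WKY and from -1.41 to -0.95 against ACTH, and the calls were lost in the fits drawn as open points.

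The actins form the thin filaments. Acta2 encodes smooth muscle alpha-actin, and its signal (1370857_at) was 1521, 1106 and 1985 in WKY, 1702, 1633 and 1660 in ACTH and 847, 1236 and 1211 in SHR. Each SHR array was below each ACTH array, whereas WKY 2 lay within the range of the SHR arrays. The log2 change was -0.47 ± 0.22 for SHR against WKY (-0.95 to 0.02; limma, adjusted p = 0.328) and -0.62 ± 0.22 for SHR against ACTH (-1.11 to -0.13; limma, adjusted p = 0.176), and neither passed. The 3 ACTH arrays of Acta2 had a coefficient of variation of 2.11%, against 28.6% in WKY.

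Actg2 encodes the gamma-actin of smooth muscle, best known from the gut wall. Its signal (1386869_at) was 2699, 2038 and 2251 in WKY, 2789, 2807 and 2815 in ACTH and 2655, 2249 and 2552 in SHR. The ACTH arrays were above all 6 others by a small margin over WKY 1, and the log2 change of 0.28 ± 0.15 against WKY did not pass (-0.04 to 0.60; limma, adjusted p = 0.496). For SHR against WKY it was 0.10 ± 0.15 (limma, adjusted p = 0.775).

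The myosin motor genes were among the brightest signals of the arrays and differed little. Myh11, the smooth muscle myosin heavy chain (1370896_a_at), read 6518, 5866 and 6269 in WKY, 5575, 6293 and 5293 in ACTH and 6387, 7552 and 6849 in SHR. Myl9, the regulatory light chain that the kinase phosphorylates (1388298_at), read 6455, 5519 and 5627 in WKY, 5250, 5495 and 5345 in ACTH and 6655, 7238 and 6890 in SHR. The SHR arrays of Myl9 were above all 6 others. The log2 change of Myl9 was 0.24 ± 0.13 for SHR against WKY (-0.04 to 0.53; limma, adjusted p = 0.377) and 0.37 ± 0.13 for SHR against ACTH (0.09 to 0.65; limma, adjusted p = 0.165). For Myh11 these were 0.15 ± 0.14 and 0.28 ± 0.14 (limma, adjusted p = 0.61 and 0.334). Mylk, which encodes the light chain kinase (1371541_at), read 4435, 2898 and 3321 in WKY, 3320, 3083 and 3440 in ACTH and 3056, 3067 and 2986 in SHR. The WKY arrays spanned the values of both other groups, and the change of Mylk in SHR was -0.20 ± 0.16 (-0.57 to 0.16; limma, adjusted p = 0.572).

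The proteins bound to actin behaved likewise. Tagln encodes transgelin, also called SM22 alpha, an actin-bundling protein, and its signal (1367570_at) was 6369, 5621 and 6291 in WKY, 5380, 6279 and 5416 in ACTH and 7805, 7076 and 6635 in SHR. Its SHR arrays lay above the 6 others, and the log2 change was 0.23 ± 0.14 against WKY (-0.07 to 0.54; limma, adjusted p = 0.426) and 0.33 ± 0.14 against ACTH (limma, adjusted p = 0.244). Cnn1, calponin 1, which restrains the myosin motor on actin (1367785_at), read 1806, 1368 and 1951 in WKY, 1728, 1653 and 1965 in ACTH and 1279, 1537 and 1641 in SHR. Its SHR values overlapped those of WKY, and the change was -0.19 ± 0.17 (-0.57 to 0.19; limma, adjusted p = 0.613). Smtn, smoothelin, a protein of contractile cells (1372684_at), read 828, 793 and 609 in WKY, 711, 704 and 635 in ACTH and 539, 968 and 784 in SHR. The SHR arrays held both the lowest and the highest Smtn value, with a change from WKY of 0.01 ± 0.21 (-0.46 to 0.48; limma, adjusted p = 0.986).

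Tpm1 encodes alpha-tropomyosin, which lies in the groove of the actin filament and is made in many splice forms. Its 4 tested probesets did not move alike. In SHR against WKY they differed by -0.23 ± 0.14 (1368724_a_at), 0.18 ± 0.15 (1370287_a_at), 0.47 ± 0.21 (1370288_a_at) and -0.38 ± 0.24 (1371241_x_at), and none passed (limma, adjusted p = 0.287 to 0.571). The probeset at 0.47, with an interval of 0.02 to 0.93, read 734, 413 and 474 in WKY, 632, 671 and 756 in ACTH and 816, 702 and 672 in SHR. WKY 1 lay among the hypertensive arrays and the other WKY arrays below them. Its change in ACTH was 0.39 ± 0.21 (-0.07 to 0.84; limma, adjusted p = 0.503). The brightest Tpm1 probeset, 1370287_a_at, read 2494 to 3068 on WKY arrays, 2701 to 3155 on ACTH arrays and 2807 to 3518 on SHR arrays. The 1368724_a_at probeset read 251 to 296, 245 to 266 and 216 to 269 in the same order, and 1371241_x_at read 40.2 to 72.1, 49.1 to 68.1 and 34.1 to 51.1. The remaining probesets, 1370513_at and 1371240_at, reached at most 23.2 and 4.36 on any array and were not tested. Which splice forms each probeset reads is not given in the files.

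**Figure D3:**
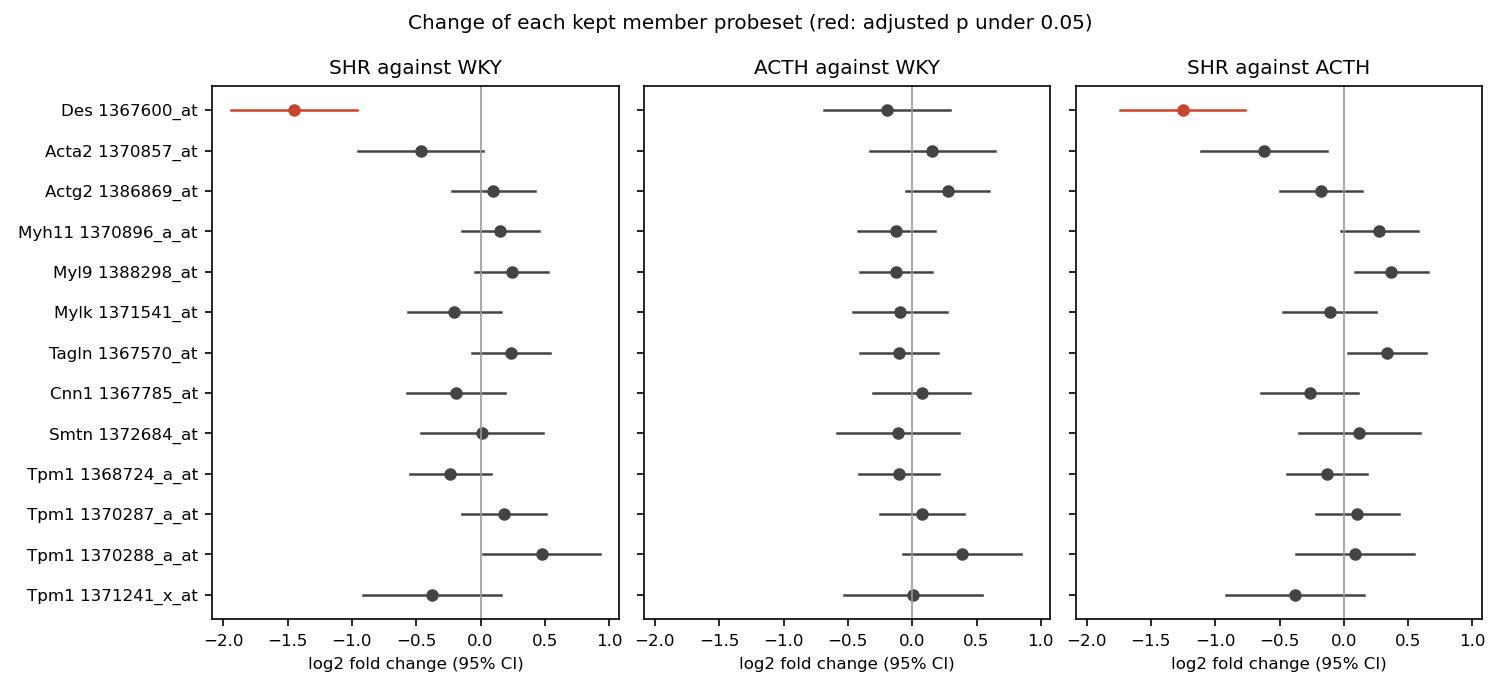
Log2 fold change (horizontal axis) with its 95% confidence interval for each of the 13 tested probesets (vertical axis) in SHR against WKY, ACTH against WKY and SHR against ACTH, from limma on 9 arrays. Des is the only probeset drawn as passing, at -1.45 and -1.25, and the intervals of the other 12 stay between -0.95 and 0.93, -0.58 and 0.84, and -1.11 and 0.65.

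As a group the contractile genes were centred close to all probesets. The median log2 change of the 13 was 0.01 in SHR against WKY, -0.09 in ACTH against WKY and -0.11 in SHR against ACTH, and over all 9038 it was 0.00, 0.02 and -0.02. The median size of the change, without its sign, was 0.23, 0.11 and 0.27, against 0.19, 0.17 and 0.19 over all. In SHR against WKY 7 of the 13 means were higher and 6 lower. The comparisons of SHR and of ACTH with WKY share the WKY arrays and are set side by side only. Intervals show what these arrays leave possible: for the 12 probesets that did not pass, none reached a log2 change of 1 in either direction in SHR or ACTH against WKY.

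Arrays of 2 groups did not overlap for 3 of the 13 in SHR against WKY, where 19.3% of all probesets did not overlap. These were Des, lower, and Myl9 and Tagln, higher. In ACTH against WKY there were 2 (Actg2, higher, and Myl9, lower), where the share over all was 20.5%. In SHR against ACTH there were 8, or 61.5% of the 13, where the share over all was 25%: Acta2, Actg2, Cnn1, Des and Mylk lower, and Myh11, Myl9 and Tagln higher. Both sides of this count depended on how arrays were scaled. With median centring Acta2 and Des alone stayed lower than ACTH without overlap. The signals of Myh11, Myl9 and Tagln stood near the top of each array, whose highest signal of any probeset was 6092 to 7773 on WKY arrays, 6284 to 6565 on ACTH arrays and 7102 to 8529 on SHR arrays. After quantile normalization, which gives every array the same highest value, none of the 3 was without overlap in any comparison. The SHR against ACTH changes were then -0.02 for Myh11, 0.09 for Myl9 and -0.01 for Tagln, against 0.28, 0.37 and 0.33 as deposited. With median centring all 3 stayed above ACTH without overlap, and none stayed so above WKY.

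The members differed in their spread. The SD of log2 signals within groups was smallest for Myl9, at 0.08, and Myh11 and Tagln, at 0.11 each, and was 0.30 for both Acta2 and Des. Over all 9 arrays the highest signal of Des was 4.59 times the lowest, that of Acta2 2.34 times, and that of the other 8 genes' probesets 1.37 to 2.11 times.

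Tested probesets with 1 gene symbol, those of the family included, were ranked by how like Des their pattern was. The measure was the root-mean-square difference of log2 signals over the 9 arrays, each centred on its own mean. The nearest 5 were Vwf (0.21), Smoc1 (0.21), Plekhf2 (0.22), Retsat (0.26) and Prune1 (0.26). Vwf encodes von Willebrand factor, a clotting protein of endothelial cells, and read 1105, 1197 and 1350 in WKY, 829, 1047 and 880 in ACTH and 366, 504 and 674 in SHR. Like Des it was lowest on SHR 1. Among the other contractile genes Acta2 was nearest, at 0.44, and the remaining ones lay at 0.58 to 0.90. The 5 were the nearest of all ranked probesets by the way they were picked, so every other probeset lies further off.

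Other genes of the contractile cell were counted from lists of known members. Of 24 listed smooth muscle genes outside the family, 21 were on the array, with 33 tested probesets, and 1 rose in SHR against WKY while none fell. The gene that rose was Kcnmb1, the beta subunit of the large-conductance calcium-activated potassium channel, which relaxes smooth muscle when open. Its signal was 92.7, 47.7 and 65.0 in WKY, 90.0, 102 and 94.9 in ACTH and 182, 265 and 154 in SHR. All SHR arrays were above all others, and the log2 change against WKY was 1.56 ± 0.25 (limma, adjusted p = 0.0102), while that in ACTH was 0.54 ± 0.25 (limma, adjusted p = 0.437). Against ACTH the SHR level differed by 1.03 ± 0.25 (limma, adjusted p = 0.0558). With scan day as a block the SHR against WKY value was 2.21 ± 0.26 (limma, adjusted p = 0.0367). That call was lost with the GAPDH ratio in the fit (1.25; limma, adjusted p = 0.219), with all non-control probesets tested (limma, adjusted p = 0.0891) and with the methods' tests after Benjamini-Hochberg (adjusted p = 0.0975).

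Lmod1, leiomodin 1, which nucleates actin filaments in smooth muscle, showed an order of arrays like that of Des without passing. It read 716, 605 and 613 in WKY, 683, 617 and 741 in ACTH and 231, 464 and 471 in SHR. Every SHR array was below every other, with SHR 1 lowest, and the log2 change against WKY was -0.80 ± 0.25 (-1.35 to -0.25; limma, adjusted p = 0.149). Against ACTH it was -0.88 ± 0.25 (limma, adjusted p = 0.0924). Fhl1, a LIM-domain protein of muscle, and Cnn3, the calponin also made outside smooth muscle, had their lowest p in ACTH against WKY, at 0.81 ± 0.20 (Fhl1 by 1390049_at) and 0.49 ± 0.14, and did not pass (limma, adjusted p = 0.105 and 0.155). The other tested Fhl1 probeset, 1372107_at, was at -0.01 ± 0.17, so the Fhl1 probesets disagreed.

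Of 20 listed genes that control phosphorylation of the light chain, 15 were on the array and 13 were tested, with 16 probesets. None passed the test against WKY in SHR or ACTH, and 1 was called higher in SHR than in ACTH. That was Camk2d, a subunit of calcium/calmodulin-dependent kinase II, which read 943, 861 and 806 in WKY, 647, 646 and 666 in ACTH and 1130, 1065 and 923 in SHR. Against WKY, Camk2d was at -0.41 ± 0.14 in ACTH and 0.25 ± 0.14 in SHR (limma, adjusted p = 0.217 and 0.382). The ACTH arrays were the lowest of the 9, and the SHR against ACTH difference was 0.67 ± 0.14 (limma, adjusted p = 0.0258). This call was lost with scan day as a block (0.50; limma, adjusted p = 0.362), with all non-control probesets tested, without any 1 of the ACTH arrays and without SHR 1 or SHR 2. Ppp1r12a, the targeting subunit of the phosphatase, was at -0.68 ± 0.29 in SHR by its probeset 1376662_at (limma, adjusted p = 0.272) and at -0.28 ± 0.20 by 1382307_at. In ACTH these probesets disagreed, at 0.08 ± 0.29 and -0.52 ± 0.20. Pak1, a kinase of the cytoskeleton, was at 0.87 ± 0.24 in SHR (limma, adjusted p = 0.102).

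None of the 15 tested genes (20 probesets) among 20 listed regulators of the contractile programme passed the test in any comparison. The 4 with the lowest p in the F test were Fhl2, a cofactor of serum response factor, Notch3, the Notch receptor of arterial smooth muscle, and the transcription factors Gata6 and Foxo4. By the probeset with the lowest p of each, 1369313_at for Fhl2, signals were low, at 28.5 to 94.2 over all arrays. Gata6 was at 0.83 ± 0.28 in ACTH against WKY (limma, adjusted p = 0.222), and Notch3 was at 0.64 ± 0.20 in SHR against ACTH (limma, adjusted p = 0.131).

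Of 16 listed genes of the synthetic state, 13 were on the array and 11 were tested, with 12 probesets, and 1 rose in ACTH against WKY. Spp1, osteopontin, a secreted phosphoprotein, read 33.2, 38.2 and 35.7 in WKY, 113, 93.9 and 80.1 in ACTH and 85.6, 48.7 and 46.6 in SHR. Both hypertensive groups lay above WKY, by 1.41 ± 0.23 in ACTH (limma, adjusted p = 0.018) and 0.70 ± 0.23 in SHR (limma, adjusted p = 0.173). Its WKY signals were all under 45. Spp1 is also made by macrophages. The Spp1 call was lost with all non-control probesets tested, with the GAPDH ratio in the fit, with a scan day block, with the methods' adjusted tests, and without WKY 1, WKY 3, ACTH 1 or ACTH 2. Lgals3, the lectin galectin 3, lay higher by 0.86 ± 0.22 in ACTH and 0.73 ± 0.22 in SHR without passing (limma, adjusted p = 0.118 and 0.134), and Vcam1, an adhesion receptor for leukocytes, was at 0.42 ± 0.15 in ACTH (limma, adjusted p = 0.273). Tpm4, a tropomyosin of non-muscle cells, was at 0.73 ± 0.24 in SHR by its probeset 1368838_at (limma, adjusted p = 0.173) and at 0.17 ± 0.14 by 1371653_at (limma, adjusted p = 0.57).

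Markers of other cells in the vessel wall or beside it were read on the same arrays. Desmin is also made in skeletal muscle, which borders the artery. Of 22 skeletal muscle markers 21 were on the array, and 15 of the 21 read under 45 on every array, Myh2, Myh4, Pvalb, Ryr1 and Mb among them. The summed signal of the 21 was 1486 to 1593 on WKY arrays, 1636 to 1653 on ACTH arrays and 1853 to 1938 on SHR arrays. Without Acta1, skeletal alpha-actin, the other 20 summed to 943 to 1156, 893 to 985 and 952 to 1080 in that order, and the SHR and WKY arrays overlapped. Acta1 rose in SHR (0.92 ± 0.15; limma, adjusted p = 0.0102), and 1 Myh1 probeset, 1377719_a_at, fell (-0.79 ± 0.16; limma, adjusted p = 0.0329).

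Endothelial markers summed to 3765 to 4454 for WKY, 3801 to 4038 for ACTH and 3874 to 4303 for SHR, which overlapped. Of their 15 tested probesets 3 rose (Emcn, Thbd and Flt1) and 2 fell (Vwf and a probeset of Icam2) in SHR against WKY. Thbd rose in ACTH against WKY too (0.998 ± 0.198; limma, adjusted p = 0.0412). The fibroblast sum was 15796 to 18893 for WKY, 11206 to 14218 for ACTH and 16279 to 18881 for SHR. Without the collagens Col1a1, Col1a2 and Col3a1, the rest of this sum was higher on each ACTH array than on any WKY array. Of 13 tested fibroblast probesets 4, of Col1a1 and Col1a2, fell in ACTH against WKY. In that comparison limma called 0 probesets of the whole array with a scan day block, 0 with the GAPDH ratio in the fit and 0 with all non-control probesets tested, where 858, 774 and 1434 had an unadjusted p under 0.05, so every call of ACTH against WKY given here was lost in each. Macrophage markers summed to 711 to 2078 for WKY, 1767 to 2678 for ACTH and 1556 to 2122 for SHR, the WKY 2 value being close to the others. Of their 9 tested probesets, that of C1qc, a complement subunit of macrophages, rose in ACTH against WKY (2.34 ± 0.47; limma, adjusted p = 0.0439). The median log2 change of the 9 from WKY was 1.15 in ACTH and 0.80 in SHR. Adipocyte markers summed to 834 to 1027, 813 to 1059 and 1042 to 1191, and Schwann cell markers to 1447 to 2221, 1947 to 2070 and 1820 to 2169, in WKY, ACTH and SHR. Cfd, the complement factor adipsin of fat cells, rose in ACTH against WKY (2.36 ± 0.45; limma, adjusted p = 0.0344), from uneven WKY signals of 27.2, 111 and 37.0. Lipe, of the same list, went the other way in ACTH without passing (-0.48 ± 0.20; limma, adjusted p = 0.366). It was called higher in SHR than in ACTH (1.18 ± 0.20; limma, adjusted p = 0.0112). What part these cells had in the values of the contractile genes, Spp1 or Lgals3 was not tested.

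**Figure D4:**
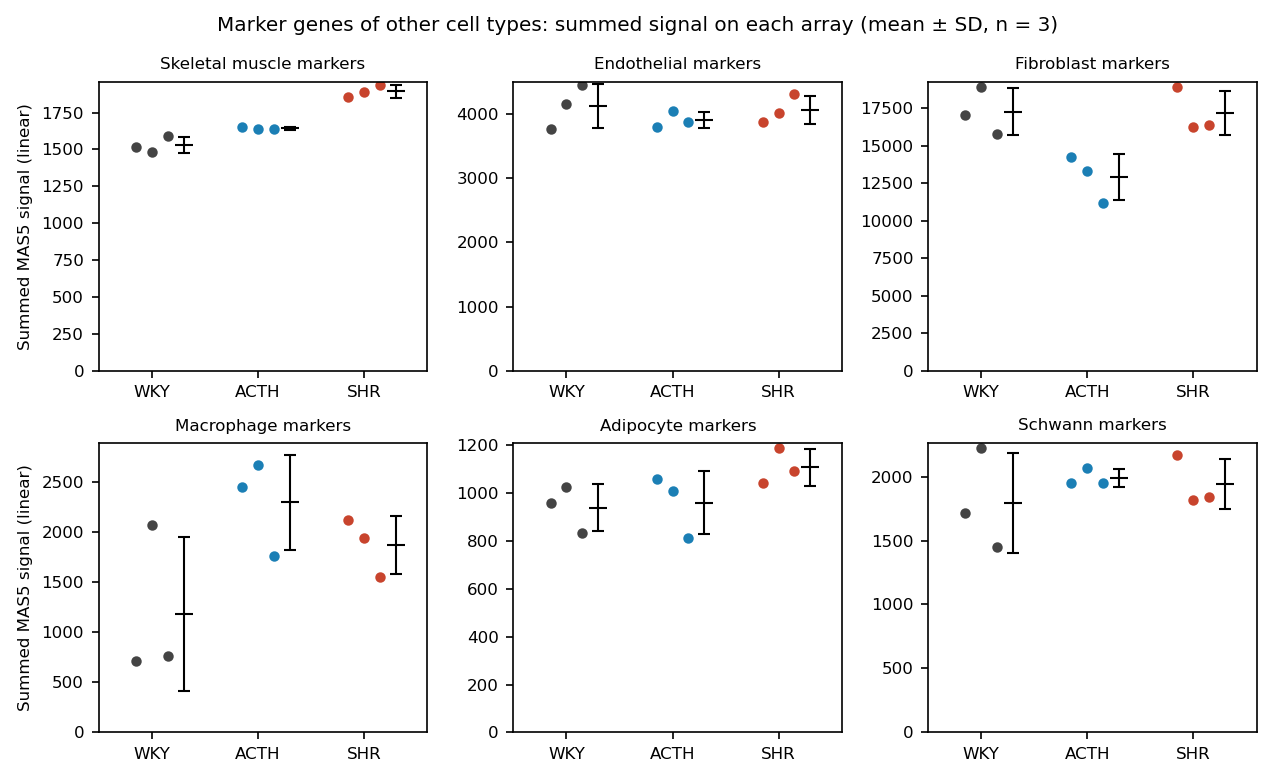
Summed linear MAS5 signal (vertical axis, from 0) of marker genes of 6 other cell types on each array, 1 probeset per gene. Points are arrays coloured by group and bars are mean ± SD (n = 3). The skeletal muscle sum was 1853 to 1938 on the SHR arrays and at most 1653 on the others, and without Acta1 the SHR and WKY arrays overlapped. The fibroblast sum, collagens included, was lowest in ACTH, but without Col1a1, Col1a2 and Col3a1 it was higher in ACTH than in WKY. The endothelial sums overlapped.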

How the data were processed

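Arrays were scanned after a pair of amplification rounds, and the authors deposited linear MAS5 signal intensities, 1 for each probeset of each array, scaled to a common target and without detection calls. No part of that step was repeated. Of 15923 probesets, 57 were controls, and 9038 of the other 15866 were kept. Of these 7676 carried 1 gene symbol, 219 several and 1143 none. Of 12789 probesets with 1 gene identifier, 12754 had it in the RefSeq table, and 0 symbols changed.

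Log2 signals were fitted in R 4.3.3 with limma 3.58.1 (lmFit with 1 mean per group, eBayes without trend, 6 residual and 4.51 prior degrees of freedom) on all kept probesets. P-values were two-sided and adjusted by Benjamini-Hochberg over the 9038, with a threshold of 0.05. Errors of log2 changes are standard errors. With 3 arrays per group the number of arrays limits the precision. The p-values rest on the spread between arrays of different pools of rats, which also holds scan day and the handling of each array. No 2 arrays held identical values. Figures were drawn with matplotlib 3.10.9.

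Full statistics were given for members called in any contrast, and values for every other member. From each list up to 4 tested probesets with the lowest adjusted p in the F test were named. A result for 1 listed gene is not reported here. The members, the lists and the alternatives were chosen with earlier results of these data known, except the counts of arrays without overlap under other scalings, which were added after their values were seen. In other fits the filter was dropped or set at a mean signal of 100, arrays were quantile normalized or centred on their medians, 16 was added before taking log2, or a variance trend was used. The GAPDH 3'/5' ratio, replicate number and scan day were each added as a term, the compared groups were fitted alone, the unmoderated tests of the study's methods were run, and arrays were left out in turn. The fit was tested on simulated data. Upstream windows came from RefSeq (GRCr8), and 3 probesets annotated to both Acta2 and Actc1 were not counted as members.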

Additional observations from a re-analysis of the deposited data

Results flagged for a closer look

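Des changed differently in the models of hypertension. The change in SHR minus the change in ACTH, both from WKY, was -1.25 ± 0.22 on the log2 scale (limma, adjusted p = 0.013), with all 3 SHR arrays below all 3 ACTH arrays. With scan day as a block it was -0.95 (limma, adjusted p = 0.33), and without ACTH 1 it was -1.21 (limma, adjusted p = 0.0615).

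Camk2d also differed between the models, by 0.67 on the log2 scale (limma, adjusted p = 0.0258), and each SHR array was above each ACTH array. The call was lost with scan day as a block (0.50; limma, adjusted p = 0.362), with all non-control probesets tested, without any 1 of the ACTH arrays and without SHR 1 or SHR 2.

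A probeset outside the comparisons, 1370856_at, is annotated to both Acta2 and the cardiac actin gene Actc1, and had a mean signal of 95.1 ± 13.9 in ACTH against 47.9 ± 13.8 in WKY (SD, n = 3). It read 41.6, 38.4 and 63.8 in WKY, 80.3, 97.2 and 108 in ACTH and 70.8, 58.2 and 63.6 in SHR. The ACTH arrays were above all 6 others (1.01 ± 0.20 against WKY; limma, adjusted p = 0.0439), and leaving out any 1 array but WKY 3 put the adjusted p above 0.05. So did scan day as a block, the GAPDH ratio in the fit, all non-control probesets, the compared groups alone and the methods' adjusted tests. WKY 1 and WKY 2 were under 45, near background. The Acta2 probeset itself differed by 0.16 ± 0.22 in ACTH (limma, adjusted p = 0.845).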

How the results depend on the processing

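Des kept its direction in SHR under all alternatives. The count of contractile probesets called in SHR against WKY fell from 1 to 0 with all non-control probesets tested (Des adjusted p = 0.0679 by limma). It was also 0 with the GAPDH ratio in the fit, a scan day block, or the methods' tests after Benjamini-Hochberg (adjusted p = 0.0777). At the methods' unadjusted thresholds of 0.02 and 0.015 it was 2, Des and Myl9. Over all tested probesets these settings called, in that order, 72 of 15866 and 35, 25, 90 and 496 of 9038, against 184 in the main fit. In SHR against ACTH the contractile count was 0 with all non-control probesets (limma, adjusted p = 0.105), scan day as a block and the methods' adjusted tests (adjusted p = 0.0847). It was 2, Des and Myl9, with a variance trend and at the methods' thresholds. Over all, these settings called 52 of 15866 and 34, 120, 380 and 598 of 9038, in that order, against 308 in the main fit. The contractile count of the F test was 0 with all non-control probesets, scan day as a block and the methods' adjusted tests, and 2 at the methods' thresholds. Over all, these settings called 63 of 15866 and 40, 117 and 874 of 9038, in that order, against 372 in the main fit. With each array left out the contractile counts were 1 to 1 in SHR against WKY and 0 to 0 in ACTH against WKY. They were 0 to 1 in SHR against ACTH (0 without ACTH 1) and 1 to 1 in the F test. Over all 9038 they were 100 to 225, 34 to 136, 108 to 322 and 163 to 393, in the same order. The cause of these shifts was not tested. With all non-control probesets the SE of Des was 0.25, against 0.22.

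The median change of the members in ACTH against WKY moved from -0.0924 to 0.0151 with quantile normalization, 0.0596 with the GAPDH ratio and 0.15 with scan day as a block, and lay between -0.0924 and 0.0795 with arrays left out (0.0795 without WKY 1). In SHR against WKY it lay between -0.177 (without SHR 2) and 0.0958, and in SHR against ACTH between -0.111 and -0.0731, with arrays left out. Probesets without overlap went from 3 to 1 in SHR against WKY and from 2 to 1 in ACTH against WKY with quantile normalization. With median centring they were 2 (Des and Tpm1) and 3 (Des, Myl9 and Tpm1), all lower. In SHR against ACTH they went from 8 to 5 with either. With quantile normalization those 5 were Acta2, Actg2, Cnn1, Des and Mylk, all lower. Over all probesets the shares with quantile normalization were 19.2%, 20.7% and 24.5% in the 3 comparisons. With median centring they were 18.6%, 20.6% and 25.8%. These counts under other scalings were added after seeing the data.

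Same-numbered arrays deviated together at r = -0.07 to 0.13 and arrays of other numbers at r = -0.16 to 0.14. Of the 9 arrays 4 were closest to an array of their own number. These values gave no sign that the numbers pair the samples, but so few arrays cannot settle it. With a replicate block Des stood at -1.45 (limma, adjusted p = 0.0143) against WKY and -1.25 (limma, adjusted p = 0.0206) against ACTH. In SHR against WKY, ACTH against WKY and SHR against ACTH, 1, 0 and 1 contractile probesets were then called, and 156, 97 and 256 of all 9038. Of 816 values of single members under the alternatives, 805 kept their side of the threshold, 8 lost a call and 3 gained one. All 8 lost calls were of Des and all 3 gained were of Myl9. The other members were uncalled in the main fit and had no call to lose, so the 805 says little of how firm the Des calls were. Signals under about 45 lie near background, which limits Spp1, Pak1, Flt1, the called Icam2 probeset and the dim Tpm1 probesets. It also limits Cfd and Gata6, under 45 on WKY 1 and WKY 3, C1qc, under 45 on WKY 1, and Lipe, under 45 on the ACTH arrays.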
